A study of Homo sapiens with 6 samples.

Results

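This account concerns TXNIP, the thioredoxin-interacting protein, with its relatives of the arrestin family and the partners TXN and MLXIP, in RNA recovered with AGO2 from PC3 cells. The 9 genes were chosen by name: TXNIP, ARRDC1, ARRDC2, ARRDC3, ARRDC4, ARRB1, ARRB2, TXN and MLXIP. A gene was read from the probe set that carried its symbol alone, and from the brightest one by mean over the 6 arrays where there were several. Of the 9 genes, 8 were measured in this way, each by 1 probe set, out of 18417 genes in all, and ARRB2 was not analysed here. The set was proposed with the difference of TXNIP already known, so the values of TXNIP are a description and its adjusted p is not independent support. The rule itself used the mean level over all arrays and not the difference between groups.

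PC3 is an androgen-independent prostate cancer line. The cells were transfected with a miR-205 mimic (n = 3 arrays) or with a negative control mimic (n = 3 arrays), and the design text calls them biological triplicates. The dose and the time after transfection are not given in the sources used here. In both groups, RNA was precipitated with an antibody to AGO2 (clone 11A9), the Argonaute protein that carries microRNAs to their targets, and was hybridised to Affymetrix gene arrays. Both groups carry a transfected mimic, and no untransfected cells and no input RNA were analysed here, so a change in AGO2 binding, a change in transcript abundance and a change in the share of cells with the transcript cannot be told apart. Values are log2 intensities, and a difference of 1 is a 2-fold difference in signal.

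Arrestins are adaptor proteins that share a fold. Beta-arrestins bind activated G protein-coupled receptors and link them to clathrin, while alpha-arrestins (TXNIP and the ARRDC proteins) recruit ubiquitin ligases of the NEDD4 family to membrane proteins. TXNIP also binds reduced thioredoxin and restrains glucose uptake, in part by promoting removal of the transporter encoded by SLC2A1 from the cell surface. MLXIP (MondoA) acts with MLX as a glucose-responsive transcription factor, for which TXNIP and ARRDC4 are well-known target genes.

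The following sequences are from RefSeq (GRCh38.p14). The mature guide strand of miR-205 is shown because it defines the treatment, with its seed (bases 2 to 8) in capitals. It lies on the plus strand at chr1:209432166-209432187.
hsa-miR-205-5p: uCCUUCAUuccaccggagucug

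The 250 bases upstream of the start site are shown for TXNIP (minus strand, chr1:145996580-145996829), ARRDC4 (plus strand, chr15:97960453-97960702) and ARRDC3 (minus strand, chr5:91383318-91383567), because the first pair are known targets of one factor and ARRDC3 had the largest difference among the 8 genes. Each is written 5′ to 3′ on the gene's own strand. Capitals mark a pair of E-box-like sites (CACGNG, then CACGNG again after 5 further bases), the E-box CACGTG, and the CCAAT box (CCAAT or its complement ATTGG), each searched on both strands.
TXNIP: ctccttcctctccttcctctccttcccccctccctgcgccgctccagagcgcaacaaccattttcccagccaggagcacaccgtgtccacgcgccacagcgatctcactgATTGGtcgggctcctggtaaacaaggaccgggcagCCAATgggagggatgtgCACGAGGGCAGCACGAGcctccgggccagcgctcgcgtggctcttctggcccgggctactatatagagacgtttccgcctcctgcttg
ARRDC4: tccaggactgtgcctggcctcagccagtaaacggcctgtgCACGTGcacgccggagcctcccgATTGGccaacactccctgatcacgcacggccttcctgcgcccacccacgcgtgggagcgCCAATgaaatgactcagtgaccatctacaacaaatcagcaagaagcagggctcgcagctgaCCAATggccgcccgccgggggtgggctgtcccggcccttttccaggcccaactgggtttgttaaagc
ARRDC3: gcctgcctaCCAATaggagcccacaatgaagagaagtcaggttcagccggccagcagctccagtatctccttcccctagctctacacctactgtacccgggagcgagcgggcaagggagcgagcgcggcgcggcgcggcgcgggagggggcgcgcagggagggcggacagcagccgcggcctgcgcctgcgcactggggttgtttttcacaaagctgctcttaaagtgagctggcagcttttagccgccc

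Such windows, with 50 further bases after the start, were found for 8 of the 9 genes, all but ARRB1, in 11 entries. The paired sites occurred once, in the first TXNIP window, as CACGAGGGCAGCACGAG beginning 88 bases before the start site, and in 20 of 35116 windows of all genes (0.057%). The E-box CACGTG was present in the ARRDC4 window only among the 11, 210 bases before its start, against 7.26% of all windows. CCAAT boxes numbered 3 for ARRDC4, 2 in the first TXNIP window and 1 in the first ARRDC3 window, and 34.6% of all windows held at least 1. A match is a description of letters and says nothing about binding in these cells.

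Array medians lay between 6.82 and 6.86. The SD over genes of the difference between arrays was 0.131 to 0.146 among miR-205 arrays, 0.155 to 0.218 among control arrays and 0.275 to 0.339 between groups. Negative control replicate 2 stood apart from the other control arrays (first principal component -19.6 to -18.3 for miR-205, 11.2 for this array, and 22.2 and 23.8 for negative control replicates 1 and 3), so the differences of the 8 genes, the list counts and the genes given per array below are also given without it. The array was picked from these same data, so calls and adjusted p-values without it are a description. Of the 5 PC3 markers KRT8, KRT18, VIM, CD44 and EGFR, 5 lay above 6.12, the 95th percentile of the mean levels of 361 olfactory receptor genes, used here as a bound for dim signal, and so did all 8 genes described. The prostate secretory marker KLK3 lay below it, at 6.06 with miR-205 and 6.08 with the control. Of 9 markers of leukocytes, fibroblasts and endothelium, 6 lay below it. The other 3 were CD14 (6.25 with miR-205, 6.42 with the control), COL1A1 (9.05 and 8.94) and PECAM1 (6.31 and 7.29), and their part in any result was not tested.

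With the miR-205 mimic, 3 of the 8 genes were higher in the AGO2 precipitate, ARRDC3, TXNIP and ARRDC1, and 1 was lower, the beta-arrestin gene ARRB1. ARRDC2, ARRDC4, TXN and MLXIP did not pass. Calls were made at an adjusted p under 0.05 in a limma fit over all 18417 genes, in which 26.6% of genes were called, 12.6% higher and 14% lower. The 8 genes are few and were chosen with results known, so their 4 calls do not set them apart from that background. For 5 of the 8, no array of one group fell within the range of the other, against 42.2% of all genes. The median difference of the 8 was 0.10, against -0.02 over all genes.

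**Figure D1:**
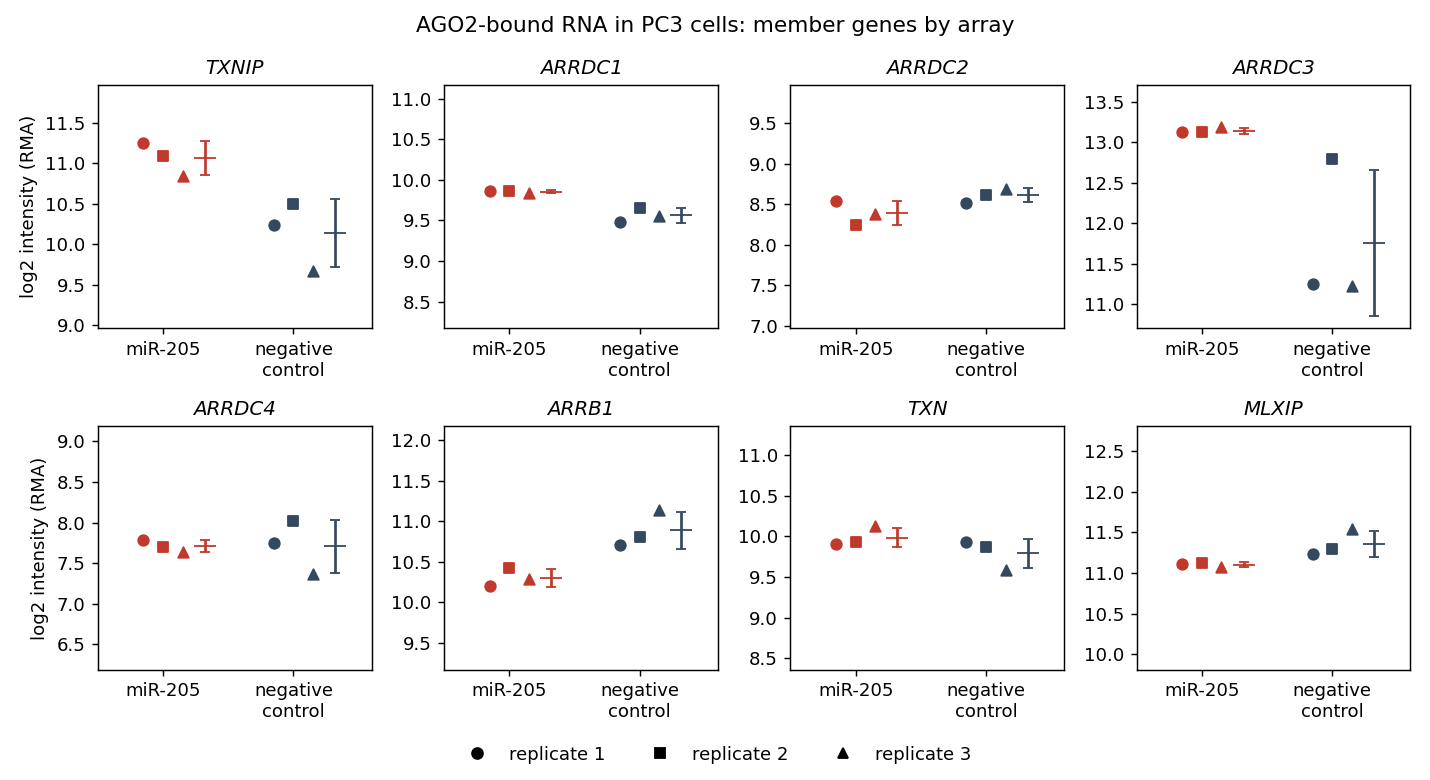
Log2 intensity of the 8 measured genes in each array (symbol shape gives the replicate number), miR-205 left and negative control right in each panel. Bars give the mean ± SD of 3 arrays, and every panel spans the same number of log2 units. ARRDC3 in negative control replicate 2 (12.80) sits near the miR-205 group, while replicates 1 and 3 lie at 11.25 and 11.23.

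TXNIP, the alpha-arrestin that binds thioredoxin, read 11.25, 11.09 and 10.84 in the miR-205 arrays, against 10.24, 10.50 and 9.68 in negative control replicates 1, 2 and 3. All miR-205 arrays lay above all control arrays, and the control arrays were the more widely spread. The means were 11.06 ± 0.21 with miR-205 and 10.13 ± 0.42 with the control (SD, n = 3 each). The difference was 0.92 ± 0.19 (SE), a 1.90-fold higher signal, with a limma adjusted p of 0.00778. Set against each control array alone, the miR-205 mean was higher by 0.82, 0.56 and 1.38 for replicates 1, 2 and 3. Without negative control replicate 2 the difference was 1.10 ± 0.17 (limma adjusted p = 0.00166). TXNIP passed with any 1 array left out, while a robust variance with a trend gave a limma adjusted p of 0.0501 for the same difference.

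ARRDC3, an alpha-arrestin that links NEDD4-family ligases to the beta2-adrenergic receptor and to integrin beta4, read 13.12, 13.12 and 13.19 in the miR-205 arrays. The control arrays read 11.25, 12.80 and 11.23 for replicates 1, 2 and 3. The groups did not overlap, and the control arrays split, with replicate 2 closest to the miR-205 group. The difference was 1.39 ± 0.36 (limma adjusted p = 0.0206), with means of 13.14 ± 0.04 with miR-205 and 11.76 ± 0.90 with the control (SD, n = 3 each). Over replicate 2 alone the miR-205 mean was higher by 0.35, and over replicates 1 and 3 by 1.90 and 1.92. Without replicate 2 the difference was 1.91 ± 0.06 (limma adjusted p = 1.305e-06). That fit keeps only control replicates 1 and 3, and replicate 2 was left out because it stood apart in these data. The small SE and adjusted p therefore do not measure the spread over all control arrays. With any other 1 array left out the call was lost (1.12 to 1.40, limma adjusted p = 0.0558 to 0.0814). The call was also lost when all probe sets of the array were tested (limma adjusted p = 0.0665) and with a robust variance with a trend (0.131).

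ARRDC1, an alpha-arrestin that drives budding of vesicles from the plasma membrane, changed less and more evenly. It read 9.86, 9.86 and 9.83 with miR-205, against 9.48, 9.65 and 9.56 with the control. The groups did not overlap, and the difference was 0.29 ± 0.06 (limma adjusted p = 0.0104), a 1.22-fold higher signal. Without negative control replicate 2 it was 0.34 ± 0.06 (limma adjusted p = 0.00496).

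ARRDC4, the alpha-arrestin that shares the MLXIP input with TXNIP, gave no detectable difference. It read 7.79, 7.70 and 7.64 with miR-205, against 7.75, 8.01 and 7.36 with the control. The miR-205 arrays fell inside the range of the control arrays. The difference was 0.0023 ± 0.14 (limma adjusted p = 0.993), with a 95% interval of -0.32 to 0.33. For TXNIP the difference was 0.92, with a 95% interval of 0.49 to 1.36. Whether the genes differed from each other was not tested. Without negative control replicate 2 the difference of ARRDC4 was 0.16 ± 0.11 (limma adjusted p = 0.326).

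ARRDC2, another alpha-arrestin, read 8.54, 8.25 and 8.38 with miR-205, against 8.52, 8.62 and 8.69 with the control. One miR-205 array lay above a control array, so the groups overlapped. The difference of -0.22 ± 0.09 did not pass (limma adjusted p = 0.0918, 95% interval -0.41 to -0.03 before adjustment), nor did the value without negative control replicate 2 (-0.22, adjusted p = 0.13). It passed only when miR-205 replicate 1 was left out (-0.30, adjusted p = 0.0435).

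ARRB1, which encodes beta-arrestin 1, a scaffold in receptor desensitisation and signalling, was lower. It read 10.20, 10.42 and 10.29 with miR-205, against 10.71, 10.81 and 11.14 with the control. Every miR-205 array lay below every control array, including replicate 2. The difference was -0.58 ± 0.11 (limma adjusted p = 0.00566), that is 0.667 of the control signal, and -0.62 ± 0.12 without negative control replicate 2 (limma adjusted p = 0.00615). The call held with any 1 array left out, between -0.67 and -0.46.

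The binding partner and the regulator of TXNIP did not pass. TXN, thioredoxin, the disulphide reductase that TXNIP binds, read 9.91, 9.93 and 10.13 with miR-205, against 9.93, 9.86 and 9.59 with the control. The groups overlapped, and the difference was 0.19 ± 0.10 (limma adjusted p = 0.201, 95% interval -0.04 to 0.42). Without negative control replicate 2 it was 0.23 ± 0.11 (limma adjusted p = 0.16), without negative control replicate 3 it was 0.09, without miR-205 replicate 3 it was 0.12, and with 1 array left out it did not pass in any case (0.09 to 0.26, adjusted p = 0.133 to 0.517).

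MLXIP read 11.11, 11.13 and 11.08 with miR-205, against 11.24, 11.30 and 11.54 with the control. The groups did not overlap, and the difference of -0.26 ± 0.08 stayed just above the threshold (limma adjusted p = 0.0513). It passed without negative control replicate 2 (-0.29 ± 0.09, limma adjusted p = 0.0451), without negative control replicate 1 (-0.32, adjusted p = 0.0372), with array weights (adjusted p = 0.0362), among genes above the dim bound (0.0327) and with a robust variance with a trend (0.0146).

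**Figure D2:**
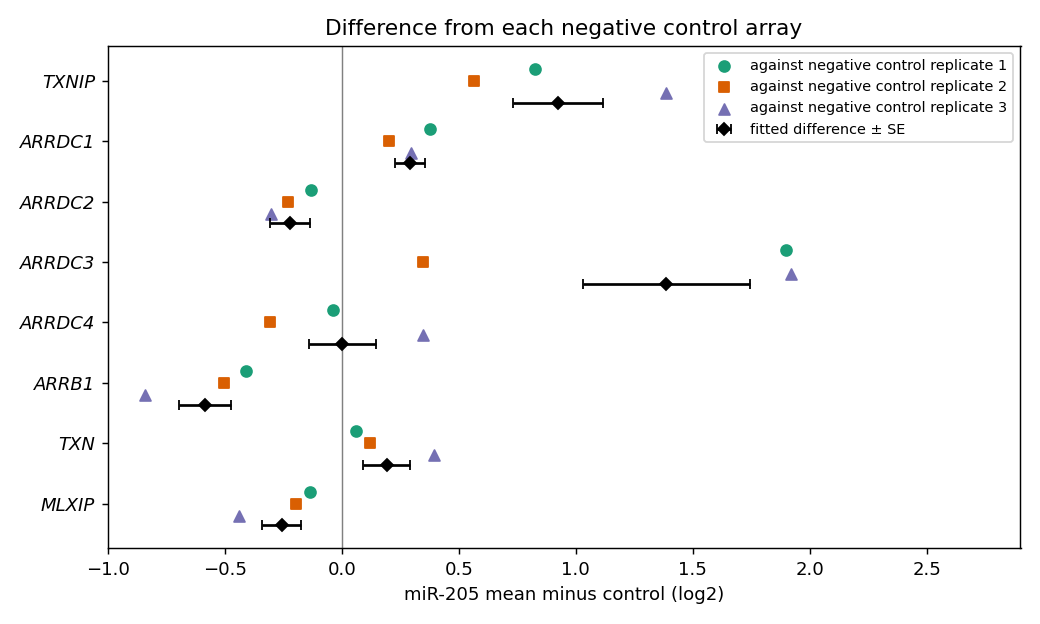
Mean of the 3 miR-205 arrays minus each negative control array (coloured symbols), and the fitted difference ± SE (black diamonds), on the log2 scale for the 8 genes. ARRDC3 shows 0.35 against replicate 2 and 1.90 and 1.92 against the other arrays, and ARRDC4 has control arrays on both sides of 0.

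The place of negative control replicate 2 varied between the genes. On a scale where 0 is the mean of negative control replicates 1 and 3 and 1 is the miR-205 mean, it stood at 0.818 for ARRDC3, 0.489 for TXNIP, 0.403 for ARRDC1, 0.317 for MLXIP and 0.195 for ARRB1. Over the 5549 genes called without that array (30.1% of genes), the median place was 0.228, with quartiles of -0.00049 and 0.523. Among the members called without that array, ARRDC3 thus lay above the upper quartile, and the other 4 genes within the quartiles. ARRDC4 (2.96), TXN (0.462) and ARRDC2 (-0.0559) were not called without it. The quartiles are those of called genes, so these genes are not placed against them. For ARRDC4 the scale divides by a difference of 0.16 ± 0.11 (limma adjusted p = 0.326).

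Genes above the dim bound were compared with TXNIP over the 6 arrays, each centred on its own mean. Pseudogenes, olfactory receptor genes, small RNA genes and symbols of the LOC, orf, FAM, LINC and MIR kinds were left out. The 6 closest among those compared were EAF2, SLCO1B3, JPX, FBXO16, ELOVL6 and MITD1. Their root mean square distance from TXNIP was 0.157 to 0.183 on the log2 scale. EAF2, a factor associated with transcription elongation, was closest, at 8.18, 8.06 and 7.87 with miR-205 and 6.94, 7.20 and 6.80 with the control. ELOVL6, a fatty acid elongase, read 7.77, 7.72 and 7.67 with miR-205 and 6.71, 6.92 and 6.59 with the control. SLCO1B3, an organic anion transporter, had a mean of 9.90 with miR-205 and 9.02 with the control. Without negative control replicate 2 the differences were 1.17 for EAF2, 1.07 for ELOVL6 and 1.01 for SLCO1B3, against 1.10 for TXNIP. Among the genes of the set, the distances from TXNIP were 0.406 for ARRDC1, 0.441 for TXN, 0.461 for ARRDC3 and 0.471 for ARRDC4. They were 0.645 for ARRDC2, 0.683 for MLXIP and 0.85 for ARRB1. The 6 genes were chosen as nearest, so larger distances for other genes follow from the choice. The distance also depends on the size of a change. Pearson correlations with TXNIP over the 6 arrays were 0.889 for ARRDC3, 0.878 for ARRDC1, 0.692 for TXN and 0.491 for ARRDC4. They were -0.681 for ARRDC2, -0.912 for MLXIP and -0.943 for ARRB1. These correlations include the difference between the groups, and do not separate it from variation within a group.

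**Figure D3:**
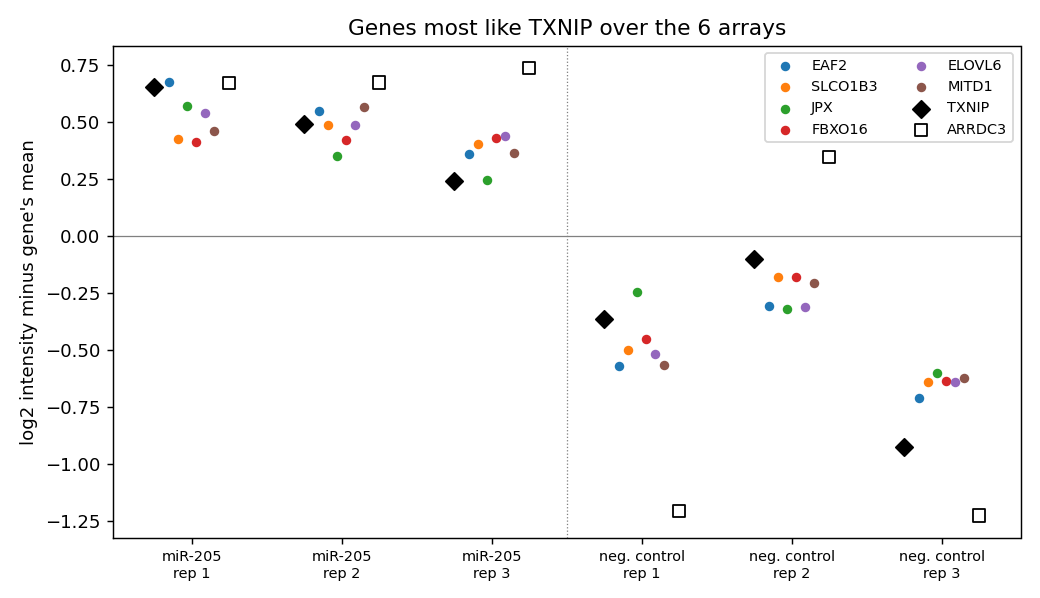
Log2 intensity minus each gene's own mean in the 6 arrays, for TXNIP (black diamonds), the 6 closest genes among those compared (coloured points) and ARRDC3 (open squares). The 6 genes stay within 0.183 root mean square of TXNIP, and ARRDC3 (0.461) departs most in negative control replicate 1.

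Further genes of these pathways were read from the same fit, in 6 lists. List counts given without negative control replicate 2 stand beside 2668 higher and 2881 lower of all 18417 genes without that array. Of 13 genes of a list of glucose transporters, related sugar transporters, hexokinases and the next glycolytic enzyme, GPI, 7 were lower and 0 higher, against 14% and 12.6% of all genes, with a median difference of -0.20. HK2, an inducible hexokinase, read 10.39, 10.38 and 10.42 with miR-205, against 11.06, 11.09 and 11.30 with the control, a difference of -0.75 ± 0.08 (limma adjusted p = 0.000233), and of -0.78 without negative control replicate 2. HK1, the widely expressed hexokinase, fell by 0.46 and SLC2A13, a myo-inositol transporter, fell by 0.46. SLC2A1, the glucose transporter that TXNIP is known to restrain, read 10.65, 10.76 and 10.74 with miR-205, against 11.04, 11.29 and 11.10 with the control. Its difference was -0.43 (limma adjusted p = 0.0044), with no overlap between the groups, and -0.35 without negative control replicate 2. GPI did not pass (-0.18, limma adjusted p = 0.065). The count of lower genes was 5 to 7 with 1 array left out and 7 without negative control replicate 2, and 3 of the 13 genes lay below the dim bound.

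Of 25 measured genes of the thioredoxin and peroxiredoxin system, 6 were higher and 2 lower, against 12.6% and 14% of all genes, with a median of 0.06. GLRX, a glutaredoxin, was higher by 0.60, at 11.06, 11.11 and 11.04 with miR-205, against 10.28, 10.79 and 10.35 with the control, where replicate 2 was again the highest, and by 0.76 without that array. RRM2, a ribonucleotide reductase subunit, was higher by 0.53, and GLRX2, a mitochondrial glutaredoxin, by 0.29, while NXN, nucleoredoxin, fell by 0.34. The reductase gene TXNRD1 (0.07) and the peroxiredoxin gene PRDX1 (-0.03) did not pass. The count of higher genes was 4 to 6 with 1 array left out (6 without negative control replicate 2), and that of lower genes was 1 with any 1 array left out.

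The NEDD4-family ligases and their adaptors, which alpha-arrestins recruit, were mixed. Of 12 measured, 3 were higher and 4 lower, against 12.6% and 14% of all genes, with a median of 0.06. Without negative control replicate 2 the counts were 4 higher and 2 lower, against 2668 and 2881 of all 18417 genes. The ligase WWP2 was then added to those higher (0.27, limma adjusted p = 0.0207). NDFIP2, an adaptor that activates these ligases, read 9.91, 9.93 and 9.94 with miR-205, against 9.17, 9.22 and 9.02 with the control, a difference of 0.79 ± 0.07 (limma adjusted p = 0.00011), and of 0.83 without negative control replicate 2. The related adaptor NDFIP1 was higher by 0.27 and the ligase NEDD4L by 0.35, and the ligase HECW2 fell by 0.40 with both means below the dim bound. ITCH (0.02), a ligase that ubiquitinates TXNIP, did not pass. The lower count was 1 without miR-205 replicate 2 or 3 and 2 with any 1 control array left out.

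Of 11 genes of the MLX and MAX network, 3 were lower and 0 higher, against 14% and 12.6% of all genes, with a median of -0.08. Without negative control replicate 2, 3 were lower and 1 higher, against 2881 and 2668 of all 18417 genes. The gene then higher was MYC (0.27, limma adjusted p = 0.0232). The lower genes were partners of MAX that repress its targets or compete with MYC: MGA (-0.59, limma adjusted p = 0.0015, and -0.68 without negative control replicate 2), MNT (-0.28) and MXD1 (-0.21). MLX, the partner of MLXIP, did not pass (0.14, limma adjusted p = 0.203), nor did MYC (0.09). MXD1 kept its call with 1 array left out only where that array was negative control replicate 2.

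Of 16 measured genes of a list of receptor kinases, clathrin endocytosis genes and the ubiquitin ligase MDM2, partners of beta-arrestins, 5 were lower and 1 higher, against 14% and 12.6% of all genes, with a median of -0.07. The 5 lower genes were CLTC, AP2A2, GRK3, the dynamin gene DNM2 (-0.21) and MDM2 (-0.18, limma adjusted p = 0.0488). CLTC, the clathrin heavy chain, fell by 0.47 (limma adjusted p = 0.00205) and AP2A2, a subunit of the clathrin adaptor, fell by 0.32. Their differences were -0.53 and -0.34 without negative control replicate 2. GRK3, a receptor kinase, fell by 0.36 with both means below the dim bound. The kinase gene GRK5 was higher by 0.55, and lost its call when its probe sets were averaged (0.21, limma adjusted p = 0.15). It was higher by 0.54 without negative control replicate 2. The lower count was 4 without negative control replicate 1 or 2 and 3 with any other 1 array left out. Of 6 other genes of the arrestin fold, 1 was lower and 0 higher, against 14% and 12.6% of all genes, with a median of 0.04. VPS26C, a subunit of an endosomal sorting complex, fell by 0.20 and 5 did not pass. VPS26C lost its call when any 1 array other than negative control replicate 1 was left out, and the visual arrestin genes SAG and ARR3 lay below the dim bound.

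**Figure D4:**
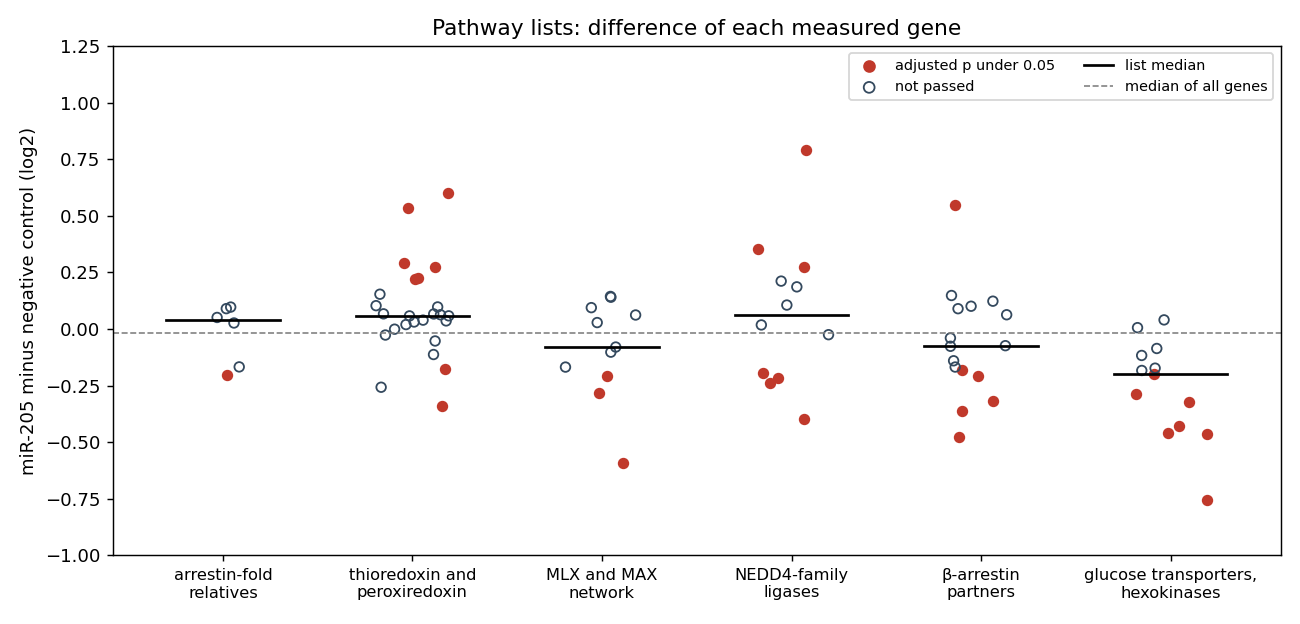
Difference between miR-205 and negative control (log2) for each measured gene of the 6 lists; filled points passed at an adjusted p under 0.05, open points did not, bars are list medians and the dashed line is the median of all genes (-0.02). The sugar transporter and hexokinase list, which also holds GPI, has 7 filled points, all below 0, and a median of -0.20.

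The paired sites of the TXNIP promoter gave a last comparison. The 20 windows that held them belonged to 20 genes, of which 18 were measured, and 5 were higher, 0 lower and 13 did not pass, against 12.6% higher and 14% lower among all genes, with a median of 0.06. Leaving out TXNIP, for which the motif was chosen, 4 of 17 were higher and 0 lower, with a median of 0.02. Of the 18, 5 were higher and 1 lower without negative control replicate 2 (ADAD2, -0.28, limma adjusted p = 0.0122). Of all 18417 genes, 2668 were higher and 2881 lower without that array. The higher genes with all arrays were TXNIP itself, ATP5ME (0.68), a subunit of the mitochondrial ATP synthase, HPF1 (0.54), a partner of the PARP enzymes, STX12 (0.44), an endosomal syntaxin, and P4HA1 (0.25), a collagen prolyl hydroxylase. The motif was chosen because TXNIP holds it, so these counts are a description.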

How the data were processed

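Per the submitters' processing notes, the authors ran RMA with version 1.1.2 of Affymetrix Expression Console. The deposited log2 intensities, 1 per probe set, were tested as they stood. The genome build is not given in the sources used here. Of 33297 probe sets, 19460 carried 1 gene symbol in the platform annotation, and the brightest per gene left 18417 genes.

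R 4.3.3 with limma 3.58.1 fitted a linear model of the group to every gene (lmFit, then eBayes). Its two-sided p-values were adjusted by the Benjamini-Hochberg method over 18417 genes, with 0.05 as the threshold. With 3 arrays per group the number of arrays limits the precision. Members and lists were chosen with earlier results of these data known. Named genes were the members, and from each list the 4 smallest p-values at most among called genes whose groups did not overlap. The 6 nearest to TXNIP among the genes compared with it were also named. Genes named beyond that (list genes that did not pass, SAG, ARR3, WWP2, DNM2, MDM2 and holders of the promoter motif) were chosen after their values were seen, as were the motif counts without TXNIP or negative control replicate 2. In 10 simulated data sets of 18417 genes, 41.4% of 1.25-fold, 97.6% of 1.5-fold and 99.6% of 2-fold changes were recovered, with 5.75% of calls false. The simulation changed a far smaller share of genes than the 26.6% called in the data. Its noise was normal and independent between arrays, with no array standing apart as negative control replicate 2 did. These rates therefore describe the simulation and need not hold for the data. Alternatives covered normalization, dim genes, probe sets, variance, array weights, the replicate block and each array left out. Promoters and the microRNA are from RefSeq. Matches of the miR-205 seed in transcripts were not analysed here.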

Additional observations from a re-analysis of the deposited data

How the results depend on the processing

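The calls of TXNIP, ARRDC1 and ARRB1 held in every alternative tried, except TXNIP under a robust variance with a trend (0.92, limma adjusted p = 0.0501). With 1 array left out, TXNIP ranged from 0.69 to 1.10, ARRDC1 from 0.25 to 0.34 and ARRB1 from -0.67 to -0.46. ARRDC3 kept its size and lost its call when all probe sets were tested and with a robust variance with a trend (1.39 in both), and ranged from 1.12 to 1.91 with 1 array left out. MLXIP gained a call among genes above the dim bound (-0.26), with the robust variance (-0.26) and with array weights (-0.26), and ranged from -0.32 to -0.17 with 1 array left out. ARRDC2 ranged from -0.30 to -0.15, passing only without miR-205 replicate 1. ARRDC4 turned negative after repeated quantile normalization (-0.012) and median centring (-0.0027), and ranged from -0.17 to 0.16 with 1 array left out. Apart from the lost calls under fewer arrays or more tests, which those settings' construction bears on, the cause was not tested.

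Of the 8 genes, 1 was higher with the robust variance, and 2 were lower with it, with array weights and among genes above the dim bound. The counts over all 18417 genes rose as well, from 2320 higher and 2586 lower in the main fit. They were 2616 and 2849 with the robust variance, and 2585 and 2836 with array weights. Of the 13373 genes above the dim bound, 2498 were higher and 2798 lower. With 1 array left out, 2 to 3 of the 8 were higher and 1 to 2 lower. Over all genes these ranges were 1588 to 2668 higher and 1777 to 2881 lower. Repeated quantile normalization gave 2276 higher and 2789 lower over all genes, and testing all probe sets gave 1629 and 1886. Median centring gave 2187 and 2607, and averaged probe sets gave 2313 and 2588. For the arrestin-fold relatives the lower count was 2 after repeated quantile normalization, among genes above the dim bound and with the robust variance, 0 when all probe sets were tested, and 0 to 1 with 1 array left out. The lower count of NEDD4-family genes was 1 when all probe sets were tested and 1 to 3 with 1 array left out. For the thioredoxin list it was 1 with median centring, with all probe sets and with the replicate block, and 1 with any 1 array left out. The beta-arrestin partners had 0 higher with averaged probe sets and 3 to 4 lower with 1 array left out. The MLX and MAX network had 0 to 1 higher with 1 array left out.

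Same-numbered arrays of the 2 groups deviated together only weakly (correlations of 0.0626, 0.0912 and 0.0103), and 5 of 6 arrays correlated best with their own number. With the replicate block, 2204 genes were higher and 2423 lower, against 2320 and 2586 without it, and the differences were 0.92 for TXNIP (limma adjusted p = 0.00209) and 1.39 for ARRDC3 (0.0156). Of the named list genes, MXD1 lost its call under the block (adjusted p = 0.0696).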
